A study of Mus musculus with 6 samples.

Results

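The genes examined here act in the storage and masking of maternal mRNA, and they were followed through the oocyte transcriptomes of aged mice. They were chosen by symbol (Zar1, Zar1l, Ybx2, Eif4e1b, Eif4enif1, Lsm14b, Ddx6, Patl2, Cpeb1 and Dazl), and 10 of 10 were found among the 25631 genes of the deposited table. The libraries were made from oocytes punctured out of large antral follicles of ICR mice at 14 months of age, after equine chorionic gonadotropin, a hormone that makes follicles grow. In the aminophylline group (3 libraries) the drinking water held aminophylline, a theophylline derivative that inhibits phosphodiesterases, at 4.0 mM for 1 week, and plain water followed for 3 weeks. The control group (3 libraries), labelled untreated, was of the same age and had no drug. The comparison asks how oocytes differ after the treatment. How many mice or oocytes stand behind each library, and the meiotic stage of the oocytes, are not given in the sources used here, so p-values measure only the spread between these libraries, which may be technical.

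A growing oocyte transcribes far more mRNA than it translates, and keeps much of it silent with short poly(A) tails, bound by proteins that block the cap, coat the message or hold it in ribonucleoprotein granules. Transcription stops when the oocyte is fully grown, so meiosis and the first steps of the embryo run on this store. CPEB1 and DAZL then release chosen messages by polyadenylation and translation, while the remainder stays masked or is degraded.

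The sequence upstream of a RefSeq start is shown for Zar1 and Ybx2. These were among the members with the lowest p-values and hold the same motif. It is also shown for Lsm14b, which had a similar difference and does not hold that motif, and for Zar1l, the relative of Zar1 that lacks it. The 250 bases before this start (build GRCm38.p6) are given 5′ to 3′ on the strand of the gene. Capitals mark CAGGTG, a form of the E-box bound by the oocyte factor FIGLA, and TAATTG, an element bound by the homeobox factor NOBOX. Each was marked on either strand (the reverse form of TAATTG reads CAATTA). By the gene positions given below, this start lies inside each of these genes. The Zar1 window lies wholly within its gene, and the Ybx2, Lsm14b and Zar1l windows run into theirs.

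Zar1, chr5:72581085-72581334, minus strand: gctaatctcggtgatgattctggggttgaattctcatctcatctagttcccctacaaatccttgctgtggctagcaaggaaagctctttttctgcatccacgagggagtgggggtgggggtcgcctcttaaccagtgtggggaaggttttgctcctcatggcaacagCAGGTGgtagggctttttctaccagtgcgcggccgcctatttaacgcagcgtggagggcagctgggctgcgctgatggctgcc
Ybx2, chr11:69935649-69935898, plus strand: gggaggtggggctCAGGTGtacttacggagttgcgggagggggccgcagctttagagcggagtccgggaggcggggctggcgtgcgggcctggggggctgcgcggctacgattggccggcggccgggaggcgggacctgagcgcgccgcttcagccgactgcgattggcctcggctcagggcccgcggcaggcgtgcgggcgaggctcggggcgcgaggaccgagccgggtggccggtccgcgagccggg
Lsm14b, chr2:180024737-180024986, plus strand: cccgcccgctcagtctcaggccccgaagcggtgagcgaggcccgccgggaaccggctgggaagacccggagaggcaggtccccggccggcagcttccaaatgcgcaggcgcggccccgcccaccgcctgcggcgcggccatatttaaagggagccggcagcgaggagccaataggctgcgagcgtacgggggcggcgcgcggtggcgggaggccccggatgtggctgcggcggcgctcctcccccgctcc
Zar1l, chr5:150518160-150518409, minus strand: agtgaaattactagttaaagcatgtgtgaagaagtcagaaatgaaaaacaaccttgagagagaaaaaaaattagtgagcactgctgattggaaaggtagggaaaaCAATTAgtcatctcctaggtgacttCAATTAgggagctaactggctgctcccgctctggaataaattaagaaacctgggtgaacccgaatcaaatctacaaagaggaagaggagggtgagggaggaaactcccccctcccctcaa

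RefSeq windows were matched for 8 of the 10 genes, and Eif4e1b and Ddx6 are named only. CAGGTG was found in 4 of these 8 windows (Zar1, Ybx2, Patl2 and Cpeb1), against 17.1% of the 27025 windows of the same length. Patl2 and Cpeb1, whose windows are not shown, had unadjusted limma p-values of 0.903 and 0.305 between the groups. A link between the motif and the differences was not tested. TAATTG was found in 1 of 8 (Zar1l, which holds 2), against 7.34% of all windows. In the last 100 bases of the annotated transcript (GENCODE vM21), the cytoplasmic polyadenylation element, read as TTTTAT or TTTTAAT on the transcribed strand, was present in 1 of the 9 members with such an end (Ybx2), against 17.8% of 19830 protein-coding genes. These are matches of letters and no evidence of binding.

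The libraries held between 14112341 and 33641283 reads, recovered as whole numbers from the FPKM values (fragments scaled to transcript length and library size), and control library 2 was the shallowest. Between 9730 and 10476 genes reached an FPKM of 1, with the highest numbers in aminophylline libraries 2 (10471) and 3 (10476) and in control library 3 (10351). All 10 oocyte markers examined were measured, and their summed FPKM was 10010 to 15440 in controls and 12350 to 14560 with aminophylline, lowest in control library 1, with Zp3 and Gdf9 leading. The 10 granulosa and cumulus cell markers, led by Cyp19a1 and Inha, summed to between 9.53 and 17.3 FPKM, with 8 of the 10 under 1 in every library. Macrophage markers summed to 199 FPKM in control library 1 and to between 81.0 and 102 elsewhere, with C1qb and Lyz2 leading. C1qb stood at 72.3 to 99.8 FPKM in every library and made up nearly all of the sum outside control library 1. Lyz2, Tyrobp, Ctss and C1qc stood at 66.4, 20.3, 17.1 and 14.8 FPKM in control library 1. In the others none of them exceeded 0.573 FPKM. Theca markers (led by Cyp11a1 and Hsd3b1), endothelial markers (Pecam1 and Tek), stromal markers (Dcn and Pdgfra) and erythrocyte markers (Hbb-bs and Hba-a1) each stayed at or under a sum of 8.89 FPKM. As the number of cells behind each library is not given, fewer cells of a type and less RNA per cell cannot be told apart.

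Per length of transcript, the 10 mRNAs spanned more than 3 orders of magnitude in level. The order by mean FPKM over the 6 libraries was Zar1l (679.9), Zar1 (462), Dazl (208), Eif4enif1 (56.9), Cpeb1 (28.8), Patl2 (27.8), Lsm14b (19.5), Eif4e1b (17.6), Ybx2 (16.7) and Ddx6 (0.407). Neighbours in this order overlapped in their libraries, except that every Dazl value was above every Eif4enif1 value and every Ybx2 value above every Ddx6 value. Within each library, however, Zar1l exceeded Zar1, Zar1 exceeded Dazl, Eif4enif1 exceeded Cpeb1 and Lsm14b exceeded Eif4e1b. The order of Cpeb1 and Patl2, of Patl2 and Lsm14b, and of Eif4e1b and Ybx2 changed between libraries. The first 3 stood well apart from the cap-binding and granule genes.

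**Figure D1:**
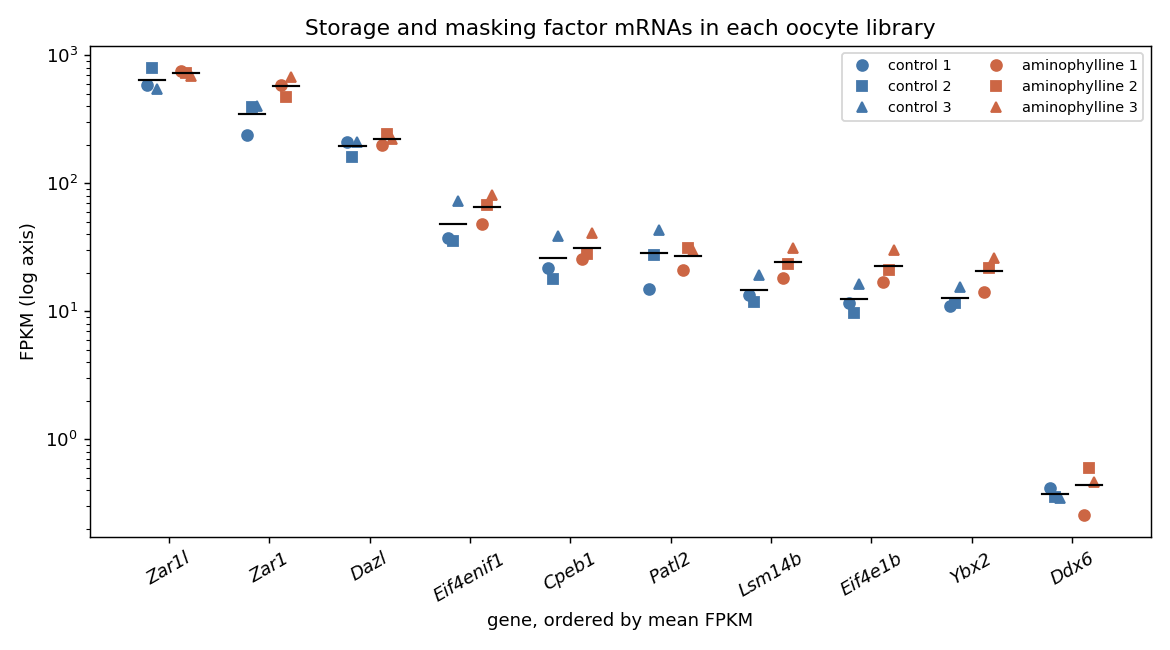
FPKM (log axis) of the 10 mRNAs in each of the 6 libraries, ordered by mean level, with controls in blue, aminophylline in orange, a marker shape per replicate number and a black bar for each group mean. Zar1l, Zar1 and Dazl lie highest, Ddx6 lies lowest at 0.258 to 0.599, and on this scale Zar1 and Eif4e1b alone show no overlap between the groups.

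Compared with control, all 9 members that passed the filter on low values were higher with aminophylline by estimate, with a median log2 fold change of 0.47 against 0.10 over all 10340 genes tested. With 1 library left out the members' median ran from 0.31 (without aminophylline library 3) to 0.78 (without control library 3). A higher estimate was, however, also found for 64.8% of all genes tested, and for 51.4% after quantile normalization and 52.1% after median centring. Under each of the latter settings Patl2 was lower by estimate. There were 4 members (Zar1, Eif4e1b, Lsm14b and Ybx2) with an unadjusted limma p under 0.05, all of them higher with aminophylline, where 7.25% of all genes tested had such a p and 4.41% had one with a higher level. Of all genes with such a p, 60.8% were higher with aminophylline, against 49.1% on TPM, 39.7% after quantile normalization and 35.9% after median centring. After Benjamini-Hochberg adjustment over all genes tested, limma called 0 of the 9 members and 0% of all genes, and limma's voom on the recovered reads also called 0 while giving 4 members an unadjusted p under 0.05. Zar1 and Eif4e1b were the 2 members whose groups did not overlap, against 7.51% of all genes tested without overlap and higher with aminophylline. This pair depends on the scaling, since Eif4e1b overlapped on TPM and after correction for GC content and length, Dazl separated after that correction, Zar1 overlapped after quantile normalization, and Lsm14b and Ybx2 separated after quantile normalization and after median centring. The remaining member, Ddx6, did not pass the filter.

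**Figure D2:**
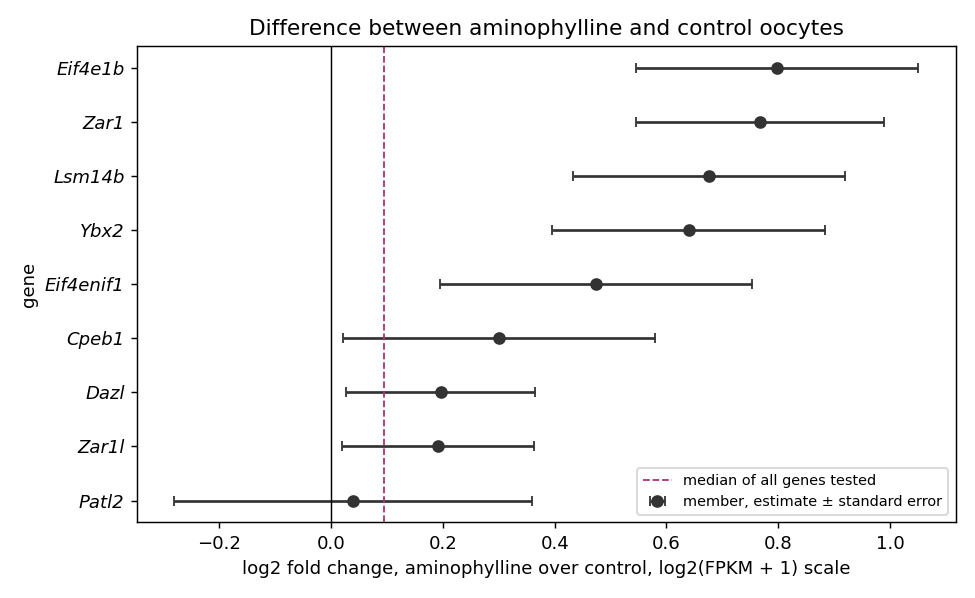
Log2 fold change between aminophylline and control on the log2(FPKM + 1) scale for the 9 members tested, with bars for the standard error (n = 3 against 3 libraries) and a dashed line at the median of all genes tested. Eif4e1b, Zar1, Lsm14b and Ybx2 lie between 0.64 and 0.80, and Patl2 lies near 0.

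Zar1 (NCBI gene 317755, chr5:72577113-72581361) encodes an RNA-binding protein of the oocyte that binds stored messages and helps to keep them silent. Its FPKM was 238, 396 and 400.5 in control libraries 1 to 3 and 585, 473 and 677 in aminophylline libraries 1 to 3. Every aminophylline library was above every control, and control library 1 was the lowest. The group means were 345 ± 92.6 and 578 ± 103 (SD, n = 3 each), a 1.68-fold difference. The log2 fold change was 0.77 (SE 0.22), with an unadjusted p of 0.00530 and an adjusted p of 0.651 by limma. With the replicate number as a block, a pairing that the sources used here do not state, the adjusted limma p was 0.0495. With the block together with a correction for GC content and length it was 0.219. Control library 1 had the lowest summed oocyte markers, mainly through Gdf9 and Zp3, while Oosp1 and Bmp15 were not lowest there. It also had the highest summed macrophage markers. Without control library 1 the log2 fold change was 0.52 and the unadjusted limma p 0.0205. The part of either set of markers in the result was not tested beyond this.

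Its relative Zar1l (NCBI gene 545824, chr5:150507055-150518194), which acts beside Zar1 on stored mRNA, was the most abundant of the members. Zar1l had 586, 791.5 and 540.3 FPKM in controls and 750.1, 725 and 686 with aminophylline. The highest and the lowest library were both controls, so the groups overlapped. The log2 fold change of 0.19 (SE 0.17) had an unadjusted p of 0.290 and an adjusted p of 0.773 by limma. Without control library 2, its highest value, it was 0.36 with an unadjusted limma p of 0.0194.

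Ybx2 (NCBI gene 53422, chr11:69935805-69941604) encodes the germ cell Y-box protein MSY2, an abundant RNA-binding protein that stabilises and masks messages in the growing oocyte. Its mRNA stood at 10.9, 11.7 and 15.4 FPKM in controls and at 14.2, 21.8 and 26.1 with aminophylline. Control library 3 lay above aminophylline library 1, and all other values were separated. The difference was 0.64 on the log2 scale (SE 0.24), with an unadjusted p of 0.0236 and an adjusted p of 0.682 by limma. After correction for GC content and length it was 0.35 with an unadjusted limma p of 0.159, so the call at an unadjusted p was lost.

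Among the cap-binding genes, Eif4e1b (NCBI gene 218268, chr13:54783994-54788459) encodes the form of the cap-binding protein eIF4E that is found in oocytes and early embryos. Its mRNA had 11.7, 9.65 and 16.3 FPKM in controls and 17.1, 20.9 and 30.1 with aminophylline. The groups did not overlap on FPKM, although control library 3 and aminophylline library 1 lay close together. The means of 12.5 ± 3.39 and 22.7 ± 6.69 (SD, n = 3 each) differed 1.81-fold. This was 0.80 on the log2 scale (SE 0.25), with an unadjusted p of 0.00903 and an adjusted p of 0.662 by limma. Eif4e1b is one of the genes that the study chose for display on these same libraries, so its direction here is not independent evidence.

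The eIF4E-binding protein 4E-T, which blocks initiation at the cap of stored messages, is encoded by Eif4enif1 (NCBI gene 74203, chr11:3202343-3244588). It was measured at 37.6, 35.2 and 72.2 FPKM in controls and at 47.7, 67.8 and 80.8 with aminophylline. Control library 3 exceeded 2 of the 3 aminophylline libraries, while each aminophylline library was above the control of the same number. The log2 fold change was 0.47 (SE 0.28), with an unadjusted p of 0.118 and an adjusted p of 0.722 by limma. With the replicate block the unadjusted limma p was 0.0163 and the adjusted p 0.249. Without control library 3 the log2 fold change was 0.80 and the unadjusted limma p 0.00456. In that fit 1498 of all genes had an unadjusted limma p under 0.05, against 750 with all 6 libraries. Without control library 2 the log2 fold change was 0.29 and the unadjusted limma p 0.343.

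The next members encode proteins of repressive granules. Lsm14b (NCBI gene 241846, chr2:180024900-180035466) encodes an RNA-binding repressor needed for oocyte maturation. It stood at 13.3, 11.8 and 19.12 FPKM in controls and at 18.1, 23.6 and 31.1 with aminophylline. Only control library 3 and aminophylline library 1 broke the separation of the groups. The log2 fold change of 0.68 (SE 0.24) had an unadjusted p of 0.0182 and an adjusted p of 0.682 by limma.

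Patl2 (NCBI gene 67578, chr2:122120108-122186189), an oocyte relative of the decapping factor PAT1, had 14.8, 27.3 and 43.2 FPKM in controls and 21.2, 31.0 and 29.4 with aminophylline. The lowest and the highest of its 6 values were controls. Its log2 fold change of 0.04 (SE 0.32) had an unadjusted p of 0.903 by limma, and its sign turned under several settings.

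Ddx6 (NCBI gene 13209, chr9:44602983-44640731) encodes the RNA helicase at the centre of P-bodies and oocyte granules. Its mRNA was listed at 0.419, 0.356 and 0.346 FPKM in controls and at 0.258, 0.599 and 0.465 with aminophylline, from 42 to 124 reads a library. The level was low in all 6 libraries and the groups overlapped. Fitted without the filter, the log2 fold change was 0.06 (SE 0.11), with an unadjusted p of 0.599 by limma. The annotation behind the FPKM is not given in the sources used here, and the listed level of Ddx6 and its place in the order may depend on it.

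Cpeb1 (NCBI gene 12877, chr7:81347026-81458001) encodes the protein that binds the cytoplasmic polyadenylation element and first represses, then activates, its targets. It had 21.8, 17.9 and 38.8 FPKM in controls and 25.5, 27.9 and 40.8 with aminophylline. The third library of each group was its highest, and control library 3 lay above aminophylline libraries 1 and 2. In limma this gave a log2 fold change of 0.30 (SE 0.28), with an unadjusted p of 0.305 and an adjusted p of 0.781 by limma. It was 0.08 without control library 2 and 0.61 without control library 3, where the groups did not overlap and the unadjusted limma p was 0.0225. In the latter fit 1498 of all genes had an unadjusted limma p under 0.05, against 750 with all 6 libraries.

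Dazl (NCBI gene 13164, chr17:50279393-50293620), a germ cell RNA-binding protein that promotes translation of maternal messages, stood at 212, 159.6 and 211 FPKM in controls and at 198, 244 and 222 with aminophylline. Control library 2 was the lowest and aminophylline library 1 came next, so the groups overlapped. Its log2 fold change of 0.20 (SE 0.17) had an unadjusted p of 0.271 and an adjusted p of 0.767 by limma. After correction for GC content and length it was 0.39 without overlap, with an unadjusted p of 0.0194 and an adjusted p of 0.648 by limma.

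Several members were similar in the order of the libraries, and others were not. Eif4e1b, Eif4enif1, Lsm14b, Cpeb1 and Dazl were each lowest in control library 2. Of these all but Dazl, and also Zar1 and Ybx2, were highest in aminophylline library 3. Zar1l was instead highest in control library 2, Patl2 in control library 3 and Dazl in aminophylline library 2. The number of genes that reached an FPKM of 1 was likewise lowest in control library 2 (9730) and highest in aminophylline library 3 (10476), and its part in the differences was not tested. Taken as a sum, the 10 mRNAs made up 0.211%, 0.249% and 0.266% of all FPKM in controls and 0.288%, 0.289% and 0.337% with aminophylline. The groups did not overlap in this share. The sum rests mainly on Zar1 and Zar1l, of which Zar1 separated the groups by itself and Zar1l did not. The share without Zar1, and that of other sets of genes, was not tested.

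**Figure D3:**
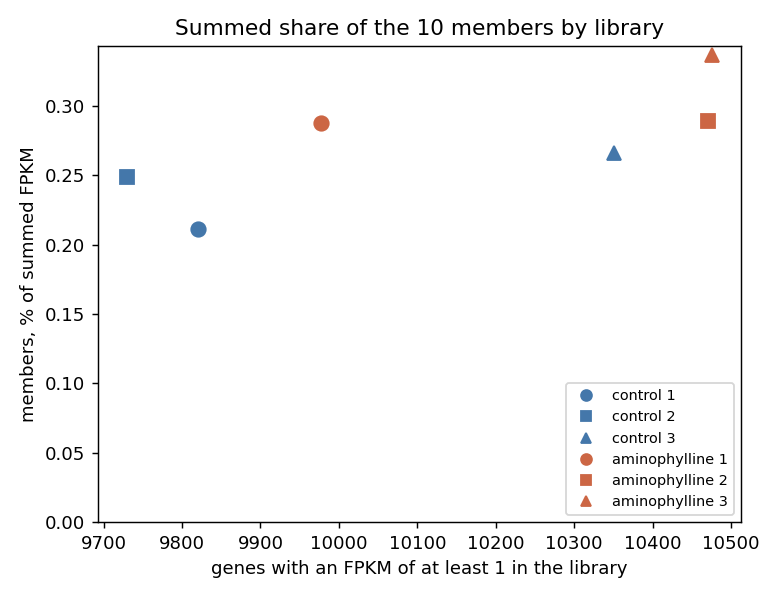
Share of the summed FPKM held by the 10 members (vertical axis, %) against the number of genes with an FPKM of at least 1 (horizontal axis) in each of the 6 libraries. The 3 aminophylline libraries (0.288% to 0.337%) lie above the 3 controls (0.211% to 0.266%), and the library with most genes has the highest share.

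Several members have a more widely expressed relative. The ratio of the FPKM of a member to that of a paralog within a library does not change when all genes of the library are multiplied by a common factor. It can change under quantile normalization or the correction for GC content and length, which shift genes by different amounts. The ratios were taken on FPKM only. Of 10 such pairs, 3 did not overlap between the groups. Eif4e1b relative to Eif4e, the general cap-binding initiation factor, was 0.116, 0.149 and 0.213 in controls and 0.321, 0.376 and 0.585 with aminophylline. Every aminophylline ratio was above every control ratio, with means of 0.159 ± 0.0495 and 0.427 ± 0.140 (SD, n = 3 each), a 2.68-fold difference. Of all other genes tested, however, 43.9% were likewise higher relative to Eif4e in each aminophylline library.

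Both sides of this ratio differed. Eif4e itself had 101, 64.6 and 76.4 FPKM in controls and 53.1, 55.6 and 51.4 with aminophylline. It was lower in every aminophylline library than in any control, with a log2 fold change of -0.56 (SE 0.19), an unadjusted p of 0.0115 and an adjusted p of 0.664 by limma. Even so, Eif4e remained the more abundant of the pair in each of the 6 libraries.

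Lsm14b relative to Lsm14a, its general counterpart, was 0.375, 0.522 and 0.402 in controls and 0.665, 0.606 and 0.607 with aminophylline. Ybx2 relative to Ybx1, the Y-box protein of most tissues, was 1.02, 1.60 and 1.43 in controls and 1.78, 2.23 and 1.79 with aminophylline. Neither ratio overlapped between the groups, as was so for 3.14% of all genes tested relative to Lsm14a and 1.86% relative to Ybx1, with aminophylline higher. In level Ybx2 exceeded Ybx1 in each library. With 3 libraries against 3, the exact two-sided permutation test cannot give a p below 0.1, and that is its value for each of these 3 ratios. Zar1 relative to Zar1l was 0.406, 0.501 and 0.741 in controls and 0.779, 0.652 and 0.987 with aminophylline, with aminophylline library 2 below control library 3. The ratios of Ybx2 to Ybx3, of Eif4e1b to Eif4e2 and Eif4e3, of Patl2 to Patl1 and of Cpeb1 to Cpeb3 and Cpeb4 overlapped as well.

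**Figure D4:**
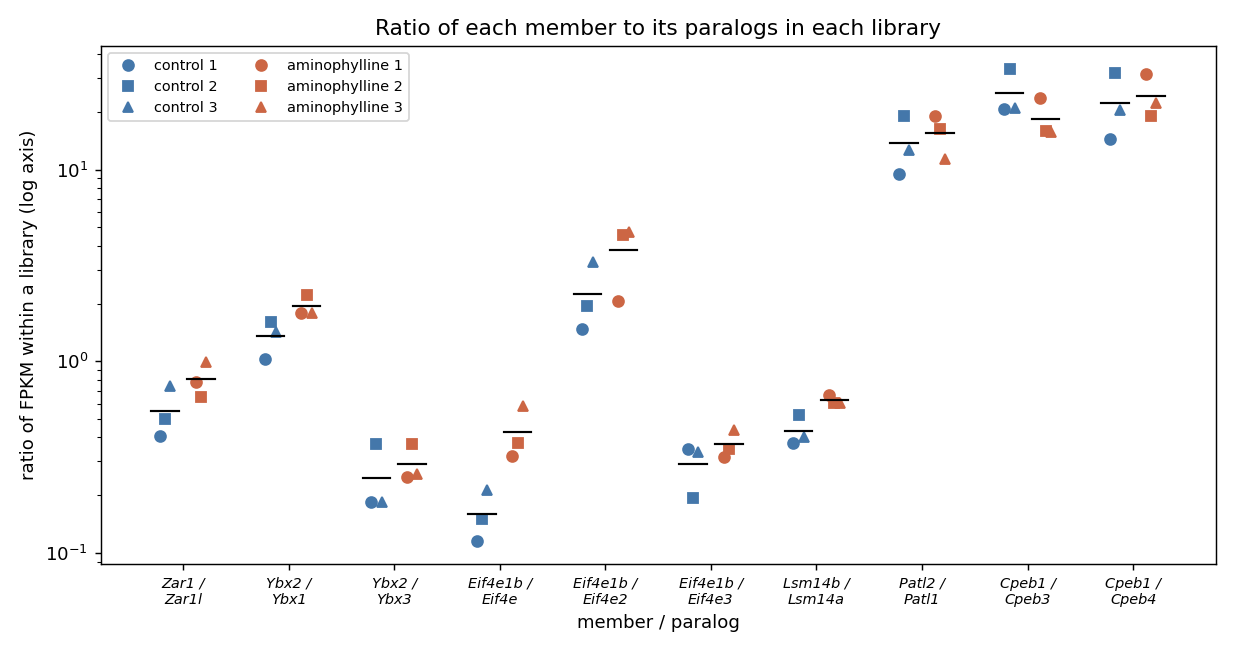
Ratio of the FPKM of a member to that of a paralog within each library (log axis), controls in blue, aminophylline in orange, with black bars for group means. Eif4e1b over Eif4e, Lsm14b over Lsm14a and Ybx2 over Ybx1 separate the groups, and the other 7 pairs overlap.

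Of 11 paralogs in the table, 9 were tested, 7 of them higher and 2 lower by estimate. By unadjusted limma p, Eif4e was lower and Eif4e3 was higher. Eif4e3, a cap-binding relative, stood at 33.7, 50.03 and 48.2 FPKM in controls and at 53.6, 60.1 and 68.7 with aminophylline, without overlap. Its log2 fold change was 0.47 (SE 0.19), with an unadjusted p of 0.0337 and an adjusted p of 0.682 by limma. On TPM the unadjusted limma p of Eif4e3 was 0.0635, after median centring 0.0783, and without aminophylline library 3 it was 0.131. Ybx3, another Y-box protein, ranged from 31.4 to 83.9 FPKM in controls and from 56.6 to 101.5 with aminophylline. The median log2 fold change of the 9 was 0.13.

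Among 19 regulators of the poly(A) tail and cap, 16 were tested, with a median log2 fold change of 0.17, and 1 had an unadjusted limma p under 0.05. This was Pabpn1l, an oocyte poly(A)-binding protein that takes part in maternal mRNA decay, with 863, 813 and 881 FPKM in controls and 610.4, 793 and 559.8 with aminophylline. Each aminophylline library was below each control, with a log2 fold change of -0.40 (SE 0.17), an unadjusted p of 0.0364 and an adjusted p of 0.682 by limma. By limma this call was lost after median centring (unadjusted p of 0.0619), in the unmoderated model, with library weights and without control library 1, control library 3, aminophylline library 1 or aminophylline library 3 (with an unadjusted p of up to 0.179), and the groups overlapped on TPM. Pabpc1l, the embryonic poly(A)-binding protein that follows it in level, ranged from 13.6 to 34.7 FPKM in controls and from 21.3 to 29.1 with aminophylline.

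Of 13 decapping and P-body factors, 10 were tested and all 10 were higher by estimate, with a median log2 fold change of 0.24. On this scale 64.8% of all genes tested were higher by estimate. After quantile normalization 51.4% of all genes were higher, and the count for this list was not taken there. Lsm5, a subunit of the LSM ring that binds deadenylated mRNA, passed an unadjusted limma p of 0.05. Its values were 306, 285 and 323 FPKM in controls and 373, 386 and 427 with aminophylline, without overlap. The difference of 0.37 on the log2 scale (SE 0.15) had an unadjusted p of 0.0263 and an adjusted p of 0.682 by limma. It lost the unadjusted call on TPM (a limma p of 0.0527), after quantile normalization (0.0635) and median centring (0.162), and without any one of the aminophylline libraries (0.0602 to 0.131). Lsm3, the most abundant of this list, had 692 to 997 FPKM in controls and 892 to 996 with aminophylline.

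Messages kept in store were looked at as well. Of 11 such mRNAs known to be translated during maturation, 3 were higher and 8 lower by estimate, none had an unadjusted limma p under 0.05, and the median log2 fold change was -0.09. Slbp, the histone mRNA-binding protein, ranged from 1967 to 2113 FPKM in controls and from 1758 to 1980 with aminophylline. Btg4, the adaptor that starts maternal mRNA decay, had 1110 to 1443 FPKM in controls and 1132 to 1164 with aminophylline. Among the oocyte markers, Figla was the 1 gene with an unadjusted limma p under 0.05, at 45.6, 78.4 and 51.8 FPKM in controls and 85.9, 79.7 and 77.6 with aminophylline, where control library 2 overlapped. Its difference of 0.50 on the log2 scale (SE 0.20) had an unadjusted p of 0.0330 and an adjusted p of 0.682 by limma. The unadjusted limma p was 0.115 after median centring and 0.131 without control library 1. It was also above 0.05 without the filter, in the unmoderated model, and without control library 3 or any of the aminophylline libraries in turn.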

How the data were processed

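RNA from oocytes of aged mice was sequenced in 6 libraries, 3 of each group, grouped by the sample titles. The values are FPKM per gene as deposited by the authors, that is, fragments counted per gene and scaled to the length of the transcript and the size of the library. GRCm38 and mm10 are named in the submitters' processing notes, and the aligner, counter and annotation are not given in the sources used here. Reads behind the values were recovered, with 100% of 22583 genes whole within 0.01 reads.

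The fit was limma 3.58.1 in R 4.3.3, a linear model with moderated variance and a trend on mean expression, two-sided, on log2(FPKM + 1), which understates the change of low genes, for the 10340 genes that reached an FPKM of 1 in 3 or more libraries. P-values were adjusted by Benjamini-Hochberg over these genes. The code was tested on simulated data. Without stated strand, reads of overlapping genes cannot be told apart.

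Replicate numbers come from the sample titles. Deviations from the group means correlated at 0.138, 0.140 and 0.552 between same-numbered libraries. From this the numbers were taken to pair the libraries, although control library 2 correlated more with aminophylline library 1 (0.423). The pairing is therefore an assumption drawn from these same data, and every result with the replicate block rests on it. The fit with the replicate block was an alternative.

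The members and lists were chosen with earlier results of these data known. All members were named, with genes of the other lists that had an unadjusted p under 0.05 the 2 most abundant of each list and the paralog of a member beside it. Other alternatives were a pseudocount of 0.1, no filter, a mean FPKM of at least 5, TPM, quantile normalization, median centring, an unmoderated model, library weights, voom on recovered reads, and each library left out in turn. A loess correction for GC content (known for 90.2% of tested genes) and length, alone and with the block, was added after seeing the data. Motifs were counted in 1 RefSeq start per gene. Python 3.11.15 and matplotlib 3.10.9 were used for sequences and plots.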

Additional observations from a re-analysis of the deposited data

How the results depend on the processing

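With the replicate block 1 member (Zar1) passed an adjusted limma p of 0.05, and likewise 1 with the block on TPM, where all genes called were 47 and 25, and the block took no other member past that threshold. At an unadjusted p it added Eif4enif1, for 5 members against 4. The count was 0 under every other setting, the block with the correction for GC content and length included. Members with an unadjusted p under 0.05 numbered 0 in the unmoderated model. They numbered from 2 to 6 with a library left out, and were 2 (Zar1 and Eif4e1b) without control library 1 or without aminophylline library 3. Without control library 2 the unadjusted limma p of Lsm14b was 0.0591 and that of Ybx2 0.0537, and without aminophylline library 2 that of Ybx2 was 0.0781. Members without overlap numbered 1 on TPM, alone or with the block, 4 with median centring and from 2 to 6 with a library left out (6 without control library 3, 5 without aminophylline library 1). The share of all genes tested without overlap and higher with aminophylline (7.51%) was taken in the main setting only. These counts therefore have no such share beside them. With a library left out fewer values have to separate, so those counts do not compare with the main one. The log2 fold change of Patl2 turned to -0.003 with quantile normalization, -0.042 with median centring and 0 on TPM, alone or with the block, and ran from -0.346 to 0.393 with a library left out. The other 8 members kept their direction under all 19 alternatives. All genes with an unadjusted p under 0.05 numbered 750, and 1404 without a filter, 2011 with library weights, 1467 with the block, 1162 with the block on TPM, 1246 with the block and the correction, and from 346 to 1650 with a library left out. The causes were not tested. Depth limits Ddx6, with at most 124 reads a library, and its annotation is not known here.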
